A study of Homo sapiens with 41 samples.

Results

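The nuclear genes that encode the subunits of oxidative phosphorylation were followed through hyperosmotic salt stress in T47D cells, an established human luminal breast carcinoma line. Members were all protein-coding genes whose symbol begins with NDUFA, NDUFB, NDUFC, NDUFS, NDUFV, UQCR, COX4I, COX5, COX6, COX7, COX8, ATP5F1, ATP5M or ATP5P in the RefSeq annotation. The rule found 91 of the 19974 protein-coding genes on chromosomes 1 to 22 and X, on 22 of these chromosomes. Of the 91, 81 were counted as subunit genes by symbol. These include COX7A2L, which encodes a factor that joins complexes III and IV, and the short genes UQCRHL and ATP5MGL. Another 8 are complex I assembly factors (NDUFAF genes, taken in by their prefix). The last 2 are read-through genes (ATP5MF-PTCD1 and NDUFC2-KCTD14) that share bases with ATP5MF and NDUFC2. The members were short, with a median span of 9936 bp against 24170.5 bp over all genes, and 46 of the 91 had an end of another protein-coding gene within 1 kb of one of their own ends. A value at such a gene cannot be assigned to 1 of the neighbours.

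The respiratory chain in the inner mitochondrial membrane passes electrons from NADH through complex I, coenzyme Q, complex III and cytochrome c to complex IV, which reduces oxygen. The proton gradient built on the way drives ATP synthase. A few catalytic subunits are encoded by mitochondrial DNA, and nuclear genes encode the other subunits. The members are most of these nuclear genes, while those of complex II and a few others, such as CYC1, fall outside the prefixes. Their promoters are known for sites of NRF1, of the ETS factor GABP and of YY1, and complex IV has tissue-specific isoforms of several subunits.

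RNA polymerase II (Pol II), the insulator protein CTCF and the cohesin subunit RAD21 were each mapped by ChIP-seq, the sequencing of DNA pulled down with a protein. All cells, controls included, had been held in steroid-depleted medium and then overnight without serum. Pol II had 2 untreated libraries and 2 taken after 1 h in 110 mM NaCl. For CTCF there were 3 untreated libraries and, under NaCl, 2 of 7.5 min, 1 of 30 min and 3 of 1 h, plus 1 from cells returned to isotonic medium for 1 h after 1 h of NaCl (recovery). RAD21 had 3 untreated libraries, 3 at 1 h and 3 after recovery. For CTCF and RAD21 there was also 1 library each of untreated, stressed and recovered cells given triptolide (500 nM, from 2 h before), which blocks the initiation of transcription. The triptolide libraries and replicate 3 of each group came in a later submission, and in 6 of its 12 libraries a tag disagreed with the title on triptolide; titles were followed. All libraries are from 1 cell line and no label says that replicates were separate cultures, so the spread between them may be technical.

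The data are 29 peak lists, each called on 1 library, without read counts, so the depth behind a value is unknown. The Pol II lists covered between 212.3 and 291.9 Mb, and the share of these bases inside protein-coding genes was 72.1 and 71.3% untreated and 55.1 and 51.0% at 1 h. In the 1 h lists 80.05 and 92.4% of the regions had a deposited -log10 q under 1.3, against 50.0 and 48.5% untreated, so the lists compared differ in make-up as well as in treatment. As a check of the cell type, 7 of 12 luminal markers had a mean of at least 50% of their span covered by Pol II in untreated cells, with KRT19, ELF3, GATA3, FOXA1 and PGR at 100% in both lists and KRT18 at 0 in all 4. None of 6 blood, 6 fibroblast and 6 muscle or neuron markers reached that level untreated. At 1 h 3 of the 6 blood markers did, and the coverage summed over the 6 was 37.1 and 108% untreated and 242 and 304% at 1 h, with HBB at 0 throughout. Luminal markers at that level numbered 4 of 12 at 1 h, with sums of 812 and 735% untreated and 360 and 590% at 1 h. Of the muscle or neuron markers 1 of 6 reached it at 1 h, with sums of 27.9 and 15.8% and then 122.9 and 58.5%, and of the fibroblast markers 0 of 6. What part, if any, other cells have in the results below was not tested.

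After 1 h of NaCl, Pol II regions covered much less of the oxidative phosphorylation genes. The median member had 51.6 and 64.5% of its span covered in the untreated lists and 0.229 and 9.34% at 1 h, and the median difference between the means of the groups was -31.4 percentage points. Over all protein-coding genes the medians were 10.4 and 9.22% untreated and 2.93 and 7.27% at 1 h, with a median difference of -1.61 points. Both 1 h lists lay below both untreated lists, with a mean difference of at least 20 points, at 45 of the 91 members, among them subunits of complexes I, III and IV and of ATP synthase. The same was seen at 23.5% of all genes. No member lay higher by this rule, against 5.95% of all genes. In limma, with Benjamini-Hochberg adjustment over 18148 genes, 17 of the 88 members with any coverage fell (adjusted p under 0.05) and 1, COX6B2, rose. Over all genes 8.81% fell and 1.95% rose, and after quantile normalization of the lists, which moved the balance, 532 of 18148 genes fell and 546 rose, with 8 members falling and 1 rising. Of the 18 members called, 11 had no spread at all in 1 of the groups, as coverage is bounded at 0 and 100%. With untreated replicate 1 or 2 left out, no limma call held, at members or at any other gene. The median difference of members was then -32.3 and -30.2 points, and -26.5 and -40.3 points with 1 h replicate 1 or 2 left out. An exact test of 2 lists against 2 cannot go below p = 0.33. Without 1 h replicate 1, 3 members rose, and over all genes 1741 fell and 1790 rose. A group left with 1 list is assumed to vary like the other.

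Members also carried more Pol II than other genes before stress. Among genes with at least 50% of the span covered in both untreated lists, a split chosen after the values were seen, 27 of 37 members and 2717 of 3658 genes in all (74.3%) were lower without overlap by at least 20 points. Their median differences were -70.7 and -59.7 points. The share of members that were lower exceeded that of all genes in each class of span length: 8 of 21 members up to 5 kb, 23 of 42 from 5 to 15 kb and 14 of 28 above 15 kb were lower, against 17.0, 27.4 and 23.8% of all genes in the same classes.

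**Figure D1:**
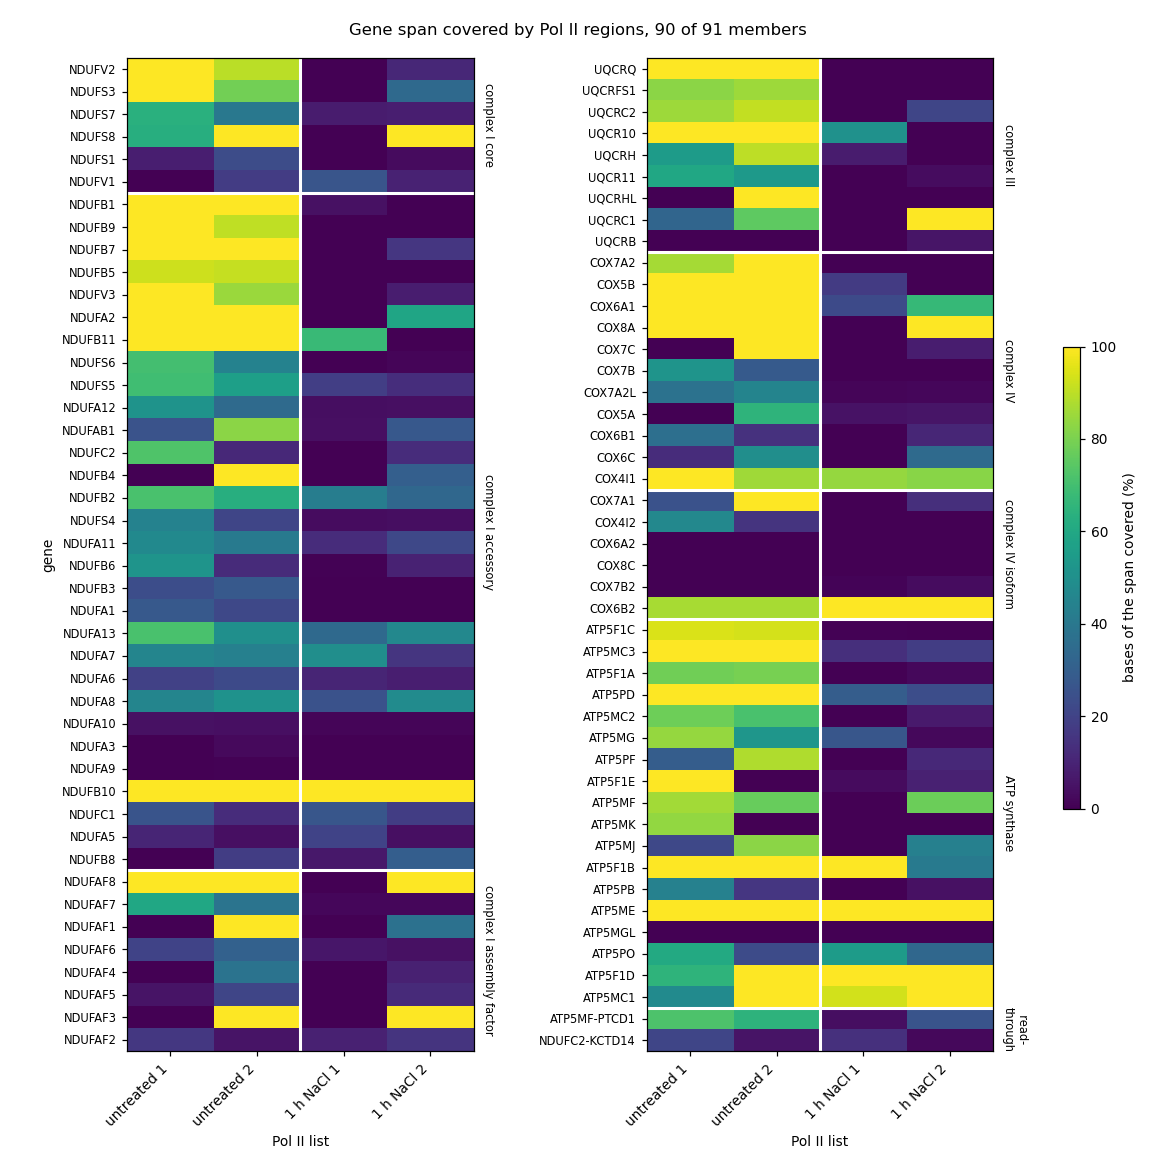
Percent of a member's span covered by Pol II regions (colour, 0 to 100%) in the 4 lists (columns), with genes in rows grouped by complex and ordered by the difference within a group. Bright untreated columns face dark 1 h columns at most genes of complex III, while NDUFB10 and ATP5ME stay at 100% and COX6A2, COX8C and ATP5MGL at 0 in all 4 lists.

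Complex I, the entry point for electrons from NADH, has a catalytic core and many accessory subunits. Of its 7 nuclear core genes 3 were lower without overlap (all genes 23.5%), and 1 passed the test. NDUFV2, which encodes an iron-sulfur subunit of the NADH-oxidizing arm (chr18:9102699-9134341), was covered over 100 and 89.8% of its span untreated and over 0 and 11.1% at 1 h. Its mean fell by 89.3 points (SE 7.35, adjusted p = 0.0228, limma). NDUFS3 went from 100 and 78.6% to 0 and 34.1% and did not pass (adjusted p = 0.111). NDUFS1, the largest iron-sulfur subunit, was thinly covered throughout, at 8.35 and 23.3% untreated and 0 and 3.06% at 1 h. NDUFV1, the flavin-binding subunit, had 0 and 17.9% untreated and 26.5 and 9.75% at 1 h, so its groups overlapped.

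Of the 30 accessory subunit genes 17 were lower without overlap (all genes 23.5%) and 5 passed the test. NDUFB1 (chr14:92116123-92121706) was covered over its whole span in both untreated lists and over 4.35 and 0% at 1 h. Its mean fell by 97.8 points with an SE of 4.28 (adjusted p = 0.00846). NDUFB9 went from 100 and 90.4% to 0 in both 1 h lists, and NDUFB5 from 92.4 and 91.03% to 0 in both (adjusted p = 0.0136 and 0.00962). NDUFB7 had 100% in both untreated lists, then 0 and 15.6%, and NDUFV3 had 100 and 84.9%, then 0 and 7.96% (adjusted p = 0.0216 and 0.0278). At these 5 genes every untreated list lay above every 1 h list by more than 75 points. Replicates could also disagree: NDUFB4 was listed at 0 and 100% untreated and at 0 and 30.4% at 1 h, and NDUFC2 at 72.3 and 11.5% untreated. NDUFB10 was covered completely in all 4 lists. An end of RPS2, a ribosomal protein gene, lies within 1 kb of an end of NDUFB10. NDUFA9 and NDUFA3 had at most 2.72% in any list. Of the 8 NDUFAF assembly factor genes 2 were lower without overlap (25.0%, near the 23.5% of all genes) and none passed the test. These were NDUFAF7, at 59.4 and 38.5% untreated and 1.77 and 1.80% at 1 h, and NDUFAF6.

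Complex III, which passes electrons from ubiquinol to cytochrome c, had 6 of 9 members lower without overlap (all genes 23.5%) and 4 that passed. UQCRQ, a small subunit (chr5:132866642-132868847), showed the largest difference of the 91, with 100% in both untreated lists and 0 in both 1 h lists (SE 4.02 points, adjusted p = 0.00794). UQCRFS1, the Rieske iron-sulfur protein, was covered over 82.6 and 85.4% untreated and 0% in both 1 h lists (difference -84.0 points, SE 4.96, adjusted p = 0.0129). UQCRC2, a core protein, went from 85.5 and 90.7% to 0 and 20.9%, and UQCR11 from 59.4 and 53.6% to 0.229 and 3.27% (adjusted p = 0.0440 and 0.0372). At all 4 the groups were far apart. The other core protein gene, UQCRC1, had 32.5 and 75.4% untreated and 0 and 100% at 1 h, and so showed no common direction. UQCRB had no coverage untreated and 0 and 5.82% at 1 h. UQCRHL, a short copy of UQCRH, was covered in 1 list alone, and reads may not separate the copies.

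Complex IV reduces oxygen, and 6 of its 11 broadly expressed members, COX7A2L included, were lower without overlap (all genes 23.5%). COX5B went from 100% in both untreated lists to 17.5 and 0% (difference -91.2 points, SE 7.99, adjusted p = 0.0256), and COX7A2 from 86.5 and 100% to 0 in both (difference -93.2 points, SE 7.06, adjusted p = 0.0198). These were the 2 that passed. COX4I1, whose product is the first nuclear subunit built into the complex, was covered over 100 and 85.8% untreated and 84.1 and 82.4% at 1 h; the difference of -9.66 points did not pass (SE 5.92, adjusted p = 0.401). COX8A had 100% in both untreated lists and 0 and 100% at 1 h.

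The paired isoforms of complex IV differed in level. The tissue-restricted COX4I2 had 46.7 and 15.0% untreated and 0 at 1 h, beside 100 and 85.8% untreated for COX4I1. COX6A2, the heart and muscle form, was listed at 0 in all 4 lists, whereas COX6A1 had 100% in both untreated lists and 22.4 and 67.1% at 1 h. COX8C was also at 0 throughout, and COX7B2 stayed below 3.5%, with 0.0889 and 0% untreated and 0.909 and 3.44% at 1 h. Their broadly expressed partners were COX8A, given above, and COX7B, at 51.6 and 28.5% untreated and 0 in both 1 h lists. COX7A1 had 25.4 and 100% untreated and 0 and 13.4% at 1 h. COX6B2, the testis form, was the only member called higher: 86.8% in both untreated lists and 100% in both 1 h lists, a difference of 13.2 points (SE 0.605, adjusted p = 0.00893), with 36.6 and 14.1% untreated and 0 and 10.8% at 1 h for COX6B1. At COX6B2 the 500 bp on either side of the start were uncovered in both untreated lists and fully covered in both 1 h lists, and coverage of the 10 kb flanks was 57.3% in both untreated lists and 100 and 94.4% at 1 h. An end of GARIN5B lies within 1 kb of an end of COX6B2. The pair known as NDUFA4 and NDUFA4L2 is listed as COXFA4 and COXFA4L2 in the annotation and thus falls outside the members. COXFA4 had 48.3 and 76.1% untreated and 30.0 and 13.3% at 1 h, and COXFA4L2 100% in both and then 0 and 48.5%; neither passed (adjusted p = 0.199 and 0.134).

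ATP synthase, which makes ATP from the proton gradient, had gene medians of 81.2 and 81.0% untreated and 1.82 and 14.8% at 1 h. Of its 18 genes 8 were lower without overlap, against 23.5% of all genes. ATP5F1C, the gamma subunit that turns within the catalytic head (chr10:7788177-7807801), went from 94.3 and 93.6% to 0.708 and 0% (difference -93.6 points, SE 4.34, adjusted p = 0.00898). ATP5F1A, the alpha subunit (chr18:46080248-46104227), went from 78.5 and 79.5% to 0 and 2.25% (difference -77.9 points, SE 5.09, adjusted p = 0.0152). ATP5MC2 and ATP5MC3 both encode the membrane ring subunit c, and both fell, from 78.1 and 71.4% to 0 and 7.10% and from 100% in both to 13.6 and 18.2% (adjusted p = 0.0268 and 0.00834). The third gene for the same subunit, ATP5MC1, had 47.7 and 100% untreated and 93.1 and 100% at 1 h, so its groups overlapped. ATP5PD, a subunit of the peripheral stalk, kept 29.4 and 23.4% at 1 h after 100% in both untreated lists (difference -73.6 points, SE 3.53, adjusted p = 0.00935). The catalytic beta subunit gene ATP5F1B had 100% untreated and 100 and 40.9% at 1 h. ATP5F1D, the delta subunit of the stalk, had 65.2 and 100% untreated and 100% in both 1 h lists. ATP5ME was covered completely in all 4 lists.

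Along the genes, coverage of the 74 members with a known strand was high at the start, through the body and beyond the 3' end before stress. Over the 47 members with enough usable bases there, on average 64.5 and 83.6% of the 500 bp before the start were covered untreated. At 1 h these averages were 36.6 and 46.3%. Between 2 and 2.5 kb past the 3' end the averages over 54 members were 69.3 and 77.3% untreated and 14.7 and 12.2% at 1 h. Over all genes they were 32.1 and 34.2% untreated and 14.3 and 15.0% at 1 h. In that bin the 1 h averages of the members were thus close to those of all genes. In the first 0.5 kb past the end they were 11.7 and 24.6%, against 15.0 and 16.3% over all genes. Between 5 and 5.5 kb they were 5.0 and 14.6%, against 13.9 and 14.8%. More of the coverage before the start remained, though the bins before and past the gene hold different sets of members. Bases of other protein-coding genes were left out of these flanks.

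**Figure D2:**
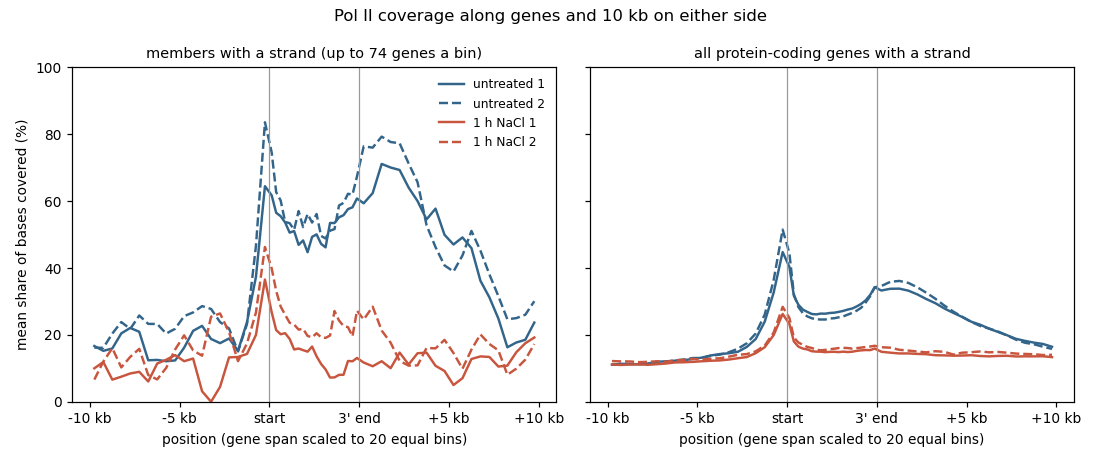
Mean share of bases covered by Pol II regions (y axis, %) from 10 kb before the start to 10 kb past the 3' end, with the gene span scaled to 20 bins, for members (left) and all protein-coding genes with a strand (right). Blue lines are the untreated lists and red lines the 1 h lists; the untreated members peak before the start (64.5 and 83.6%) and again past the 3' end, where the 1 h lists average 14.7 and 12.2% between 2 and 2.5 kb.

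Downstream of the 3' end, 38 of 65 members had less coverage of the next 10 kb at 1 h without overlap and by at least 20 points, against 25.2% of all genes, and 12 of 63 fell in limma, against 13.2% of all genes. The region after ATP5F1A was covered over 100% in both untreated lists and 0 in both 1 h lists, and so was that after COX7A2L, which encodes a factor that joins complexes III and IV. The region after UQCRQ had 100% in both untreated lists and 0 and 5.81% at 1 h. Around the start (500 bp on either side) 26 of 74 members were lower by the same rule, against 23.1% of all genes, and 15 of 71 fell in limma, against 17.4% of all genes. UQCRQ, NDUFB1, COX5B, COX7A2, NDUFS6, NDUFA1, ATP5PB and ATP5PF were among them, each with 100% in both untreated lists and 0 in both 1 h lists. NDUFC1 and COX6B2 were higher there, 2.7% of the members beside 2.83% of all genes. Over both 10 kb flanks together the median difference of the 86 members with enough usable bases was -24.8 points, against -2.13 points over all genes. Flank coverage was higher without overlap by at least 20 points at 2.33% of these members and 6.94% of all genes. Members with higher flank coverage of any size at 1 h without overlap included COX6B2, NDUFB10 (57.3 and 57.8% untreated, 67.7 and 80.8% at 1 h), COX6A2 (0 in both, then 10.4 and 19.5%) and COX7B2 (0.870 and 0%, then 2.77 and 3.36%).

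The promoters of 74 members are in the RefSeq promoter table (build GRCh38.p14), which gives 250 bases before and 50 after the start; for genes with several starts the first entry was read. Motifs were searched as exact letters on both strands. GCGCATGCG (NRF1, which overlaps its own reverse complement in part) was found in 10 of the 74 member promoters (13.5%) and in 2.76% of 15813 promoters of protein-coding genes. CCGGAAGT (ETS family, GABP) was found in 9 (12.2%) against 6.2%, and AAGATGGCG (YY1) in 7 (9.46%) against 2.74%. At least 1 of the 3 was in 24 (32.4%) of the members and in 1732 of all 15813. Pol II span coverage was lower without overlap at 6 of the 10 members with the NRF1 letters, 6 of the 9 with the ETS letters and 3 of the 7 with the YY1 letters, beside 37 of all 74. Over all protein-coding genes this share was 23.5%.

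The 200 bases before the start are shown for 7 members whose Pol II or CTCF values are described here, because they hold these letters, written 5' to 3' on the strand of the gene with the match in capitals. UQCRQ (chr5:132866442-132866641, plus strand), UQCR11 (chr19:1605463-1605662, minus strand), COX5B (chr2:97645862-97646061, plus strand) and ATP5PD (chr17:75046970-75047169, minus strand) hold the ETS letters, in ATP5PD as the reverse complement ACTTCCGG. COX5B has a further match that runs across its start and is not in capitals. ATP5F1C (chr10:7787977-7788176, plus strand) and NDUFS6 (chr5:1801207-1801406, plus strand) hold the NRF1 letters, in ATP5F1C on both strands. ATP5ME (chr4:674277-674476, minus strand) holds the NRF1 letters and, before them, AGGGGGCGC from the core of the CTCF motif.
UQCRQ: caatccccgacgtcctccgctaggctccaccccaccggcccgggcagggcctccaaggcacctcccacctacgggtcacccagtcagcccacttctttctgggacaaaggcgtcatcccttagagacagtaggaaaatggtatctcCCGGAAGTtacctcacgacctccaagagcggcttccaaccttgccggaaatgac
UQCR11: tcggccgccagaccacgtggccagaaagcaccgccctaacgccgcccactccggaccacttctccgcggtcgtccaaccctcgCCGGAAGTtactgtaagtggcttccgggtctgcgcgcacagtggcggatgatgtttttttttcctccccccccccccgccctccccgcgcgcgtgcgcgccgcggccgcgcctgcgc
COX5B: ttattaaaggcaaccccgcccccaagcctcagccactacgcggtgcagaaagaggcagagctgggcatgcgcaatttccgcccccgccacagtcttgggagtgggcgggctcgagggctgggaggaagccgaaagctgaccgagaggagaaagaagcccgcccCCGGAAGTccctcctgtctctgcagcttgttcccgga
ATP5PD: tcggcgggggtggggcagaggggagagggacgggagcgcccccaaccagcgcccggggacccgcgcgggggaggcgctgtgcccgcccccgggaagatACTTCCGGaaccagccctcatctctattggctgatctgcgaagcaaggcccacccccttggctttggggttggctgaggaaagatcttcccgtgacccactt
ATP5F1C: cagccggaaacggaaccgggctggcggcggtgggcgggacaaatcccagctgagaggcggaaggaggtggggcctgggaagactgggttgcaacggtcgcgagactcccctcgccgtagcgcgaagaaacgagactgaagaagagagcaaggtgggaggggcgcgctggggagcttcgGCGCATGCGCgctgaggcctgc
NDUFS6: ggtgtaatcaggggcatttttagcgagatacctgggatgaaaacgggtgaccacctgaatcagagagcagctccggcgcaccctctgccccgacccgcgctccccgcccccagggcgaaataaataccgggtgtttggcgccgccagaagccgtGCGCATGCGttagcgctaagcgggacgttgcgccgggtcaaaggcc
ATP5ME: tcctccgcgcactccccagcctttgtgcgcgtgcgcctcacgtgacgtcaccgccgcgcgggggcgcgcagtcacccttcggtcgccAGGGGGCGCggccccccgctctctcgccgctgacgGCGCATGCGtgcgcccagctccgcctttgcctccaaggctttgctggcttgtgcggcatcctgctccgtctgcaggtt

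The span of ATP5ME stayed fully covered by Pol II in all 4 lists, whereas the spans of UQCRQ, UQCR11, COX5B, ATP5PD and ATP5F1C fell, and that of NDUFS6 went from 70.2 and 44.5% to 0 and 1.28% without passing (adjusted p = 0.0937).

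Other genes of mitochondrial energy metabolism were described in the same way. Over all genes 23.5% were lower and 5.95% higher by the rule of no overlap, and 8.81% fell in limma. Of the 4 complex II genes 2 were lower without overlap, SDHC from 76.0 and 51.4% to 10.1 and 14.8% and SDHA from 81.4 and 45.7% to 0 and 29.6%, and none passed. Of 30 further assembly factors 14 were lower and 6 fell in limma. ATP5IF1, the inhibitor of ATP synthase, fell from 100% in both untreated lists to 16.7 and 29.6% (adjusted p = 0.0207), while cytochrome c (CYCS) had 100% untreated and 100 and 0% at 1 h. Of 12 regulators 4 were lower and 1 higher, and none passed in limma. TFAM, which packages mitochondrial DNA and helps to start its transcription, went from 37.2 and 45.9% to 8.41 and 5.42% (adjusted p = 0.0807). Of the 14 citrate cycle genes 5 were lower and 1 was higher, with 3 falling in limma. Glycolysis, the other main route to ATP, had 9 of 17 genes lower and 2 higher, with 5 falling, among them GAPDH from 100% in both untreated lists to 0 in both (adjusted p = 0.00794). Ribosomal protein genes (44 of 83 lower, median difference -50.0 points) and proteasome genes (16 of 40, -20.5 points) lay on either side of the members. These differences between lists were not tested.

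**Figure D3:**
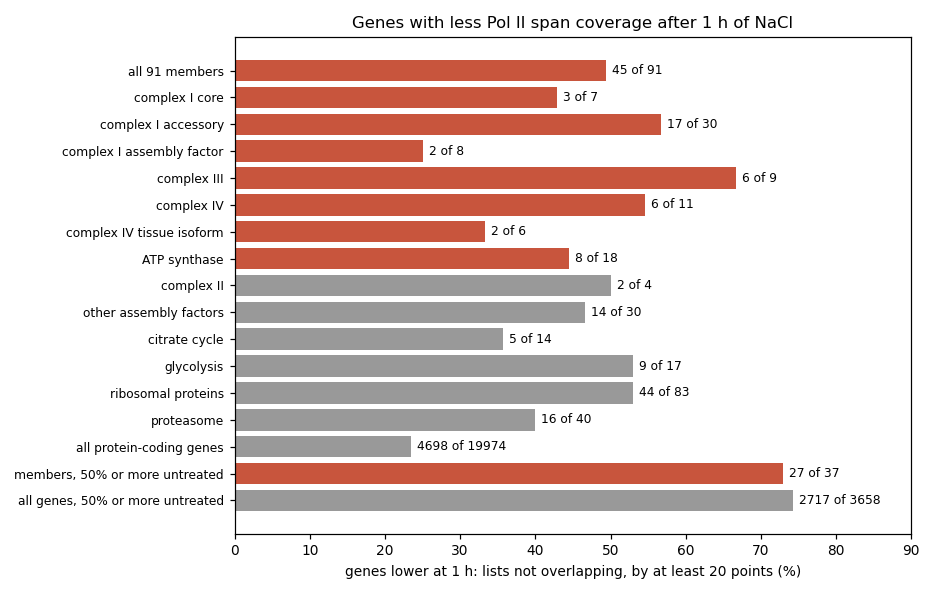
Share of genes (x axis, %) whose Pol II span coverage was lower at 1 h without overlap of the lists and by at least 20 points, with counts beside the bars; members and their complexes in red, other lists and all genes in grey. The 91 members (45) lie above all genes (23.5%), and the bottom bars show that members and other genes with high coverage before stress have shares of 73.0 and 74.3%.

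CTCF bound within 1 kb of an end of 34, 21 and 32 of the 91 members in the 3 untreated lists. Across all protein-coding genes the shares in the same lists were 36.6, 19.4 and 42.2%, against 37.4, 23.1 and 35.2% of the members. After stress the numbers were 22 and 17 at 7.5 min, 16 at 30 min and 25, 20 and 15 at 1 h, and after recovery 39. At 7.5 min these are 24.2 and 18.7% of the members, beside 21.1 and 13.7% of all genes, and at 30 min 17.6%, beside 12.2%. At 1 h replicates 1 and 3 had 27.5 and 16.5% of the members and 25.3 and 25.1% of all genes, and replicate 2 had 20 members and 17.7% of all genes. After recovery the shares were 42.9 and 47.5%. In replicate 2, the only one with all times, 21, 17, 16 and 20 members had a peak at 0, 7.5, 30 and 60 min. The lists also shrank, from 38571 to 59843 peaks untreated to 22018 to 35374 at 1 h. With the 20678 strongest peaks of every list alone, the members with a peak numbered 11, 5 and 18 untreated and 18, 13 and 14 at 1 h, so the lower numbers at 1 h cannot be told apart from the shorter lists.

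**Figure D4:**
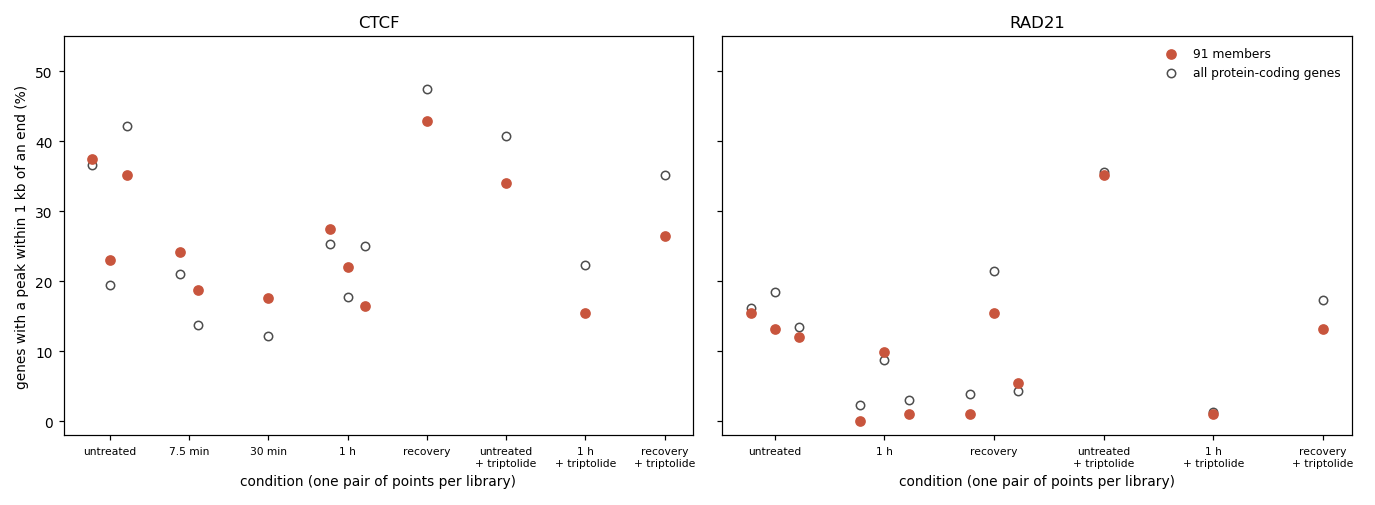
Share of the 91 members (filled) and of all 19974 protein-coding genes (open) with a CTCF (left) or RAD21 (right) peak within 1 kb of a gene end (y axis, %), with a pair of points per library grouped by condition. Members lie above all genes in the 7 CTCF libraries of the earlier submission and below them in the 6 of the later one; for RAD21 the highest pair is the untreated library with triptolide (35.2 and 35.6%) and the 1 h libraries lie under 10%.

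In all 3 untreated lists CTCF was present at 18 members (all genes 17.3%). Of these 18, 11 had a peak in all 3 lists at 1 h and 0 were without a peak in all 3; over all genes 74.1% were kept and 3.82% lost. The 7 in between were UQCRC1, UQCRB, UQCR11, NDUFB6, NDUFB9, ATP5F1B and the read-through gene ATP5MF-PTCD1. The site of this read-through gene (chr7:99415456-99415966) lay at the end beside PTCD1, away from ATP5MF. Without 1 h replicate 3, from the later submission, 16 were kept. Over all genes 86.9% were then kept. Without 1 h replicate 1, 1 of the 18 was lost (all genes 8.44%). Leaving out untreated replicate 2 or 3 widened the pool to 27 and 21 members, of which 3 and 2 were lost (all genes 18.5 and 7.91%). Peaks were found in every one of the 13 CTCF lists at ATP5ME, ATP5MJ, ATP5F1D, COX6A1, NDUFA6, NDUFAB1, NDUFAF4 and NDUFAF8. At ATP5ME the site (chr4:674088-674729) had its median summit at -127 bp from the start, next to the AGGGGGCGC shown above, which runs from base -113 to base -105. Those 9 letters were found in 2 of 74 member promoters (2.70%) and in 2.50% of all, and AGGTGGCAG, another form of the core, in none and in 0.759%. NDUFAB1 (chr16:23596040-23596748), the mitochondrial acyl carrier protein, ATP5MJ (chr14:103921176-103921977) and NDUFA6 (chr22:42090748-42091331) also carried the site at the start, with median summits at -87, -107 and -230 bp from it. COX6A1 (chr12:120439455-120440155) and NDUFAF8 (chr17:81241456-81242352) carried it at the 3' end. Pol II span coverage was lower without overlap by at least 20 points at 3 of the 11 members that kept CTCF, beside 45 of all 91 members and 23.5% of all genes.

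RAD21 was present near an end of 14, 12 and 11 members untreated (16.2, 18.5 and 13.5% of all genes), and of 0, 9 and 1 at 1 h (2.34, 8.81 and 3.05%). The 1 h lists were low in replicates 1 and 3 and higher in replicate 2. They were also short, with 4761, 7843 and 6630 peaks against 18297, 13762 and 24931 untreated, and with the 3344 strongest peaks of each list no more than 2 members had a peak in any of the untreated or 1 h lists. In all 3 untreated lists RAD21 was found at 7 members, UQCRQ, UQCR11, NDUFA6, NDUFAF4, NDUFAF8, ATP5F1D and ATP5MF-PTCD1 (all genes 9.38%), and 6 of these, all but UQCRQ, also had CTCF in all 3 untreated lists. None of the 7 was kept in all 3 lists at 1 h, and 2, UQCR11 and ATP5MF-PTCD1, were lost from all 3. Over all genes 19.9% were kept and 39.3% lost. The ATP5MF-PTCD1 site (chr7:99415443-99415909) lay at the end beside PTCD1, away from ATP5MF, and ATP5MF itself had RAD21 near an end in no list. The count of 0 kept rests on replicate 1, which had no member; without it 1 member, ATP5F1D, was kept. Without 1 h replicate 2 instead, 6 of the 7 were lost, against 68.4% of all genes. Leaving out untreated replicate 2 or 3 widened the pool to 9 and 11 members, of which 4 and 4 were lost, against 45.2 and 48.8% of all genes.

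**Figure D5:**
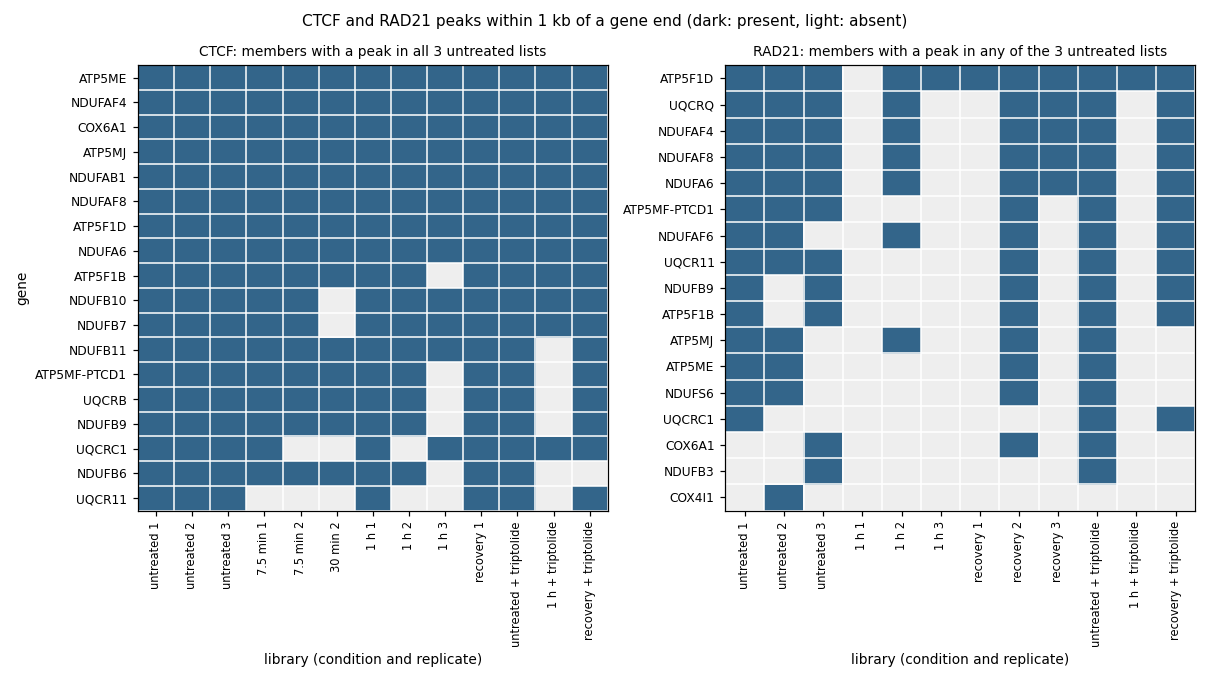
Presence (dark) or absence (light) of a peak within 1 kb of an end of each member (rows) in every CTCF list (left) and RAD21 list (right), for the 18 members with CTCF in all 3 untreated lists and the 17 with RAD21 in any. CTCF fills most cells at 1 h, while the RAD21 columns of 1 h replicates 1 and 3 hold 0 and 1 members.

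After recovery RAD21 was found at 1, 14 and 5 members (3.84, 21.5 and 4.31% of all genes), in lists of 4397, 20400 and 6492 peaks. Of the members with a peak untreated and none at 1 h in the same replicate, 1 of 14, 4 of 5 and 4 of 10 had a peak after recovery, against 15.6, 76.2 and 19.4% of such genes in all. For CTCF, where recovery was sampled in the later submission alone, 17 of 17 members had a peak again, against 91.6% of such genes. That recovery list held 46377 peaks, against 38571 untreated and 22018 at 1 h in the same submission. For both proteins the return of peaks cannot be told apart from the length of the lists.

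With triptolide and no salt, RAD21 was called near an end of 32 members, against 11 in the untreated library of the same submission, and it included all 11. The list held 40969 peaks against 24931, and reached 35.6 and 13.5% of all genes. With the 3344 strongest peaks of each list, 0 members had RAD21 in either, so the gain cannot be told apart from the longer list. At 16 members RAD21 was present with triptolide and in none of the 3 untreated lists, out of 74 members without it untreated. Over all genes the share was 17.7%. Pol II span coverage at 1 h was lower without overlap by at least 20 points at 10 of the 16. The same held at 45 of all 91 members and 23.5% of all genes, and a link was not tested. The 16 were NDUFA8, NDUFA11, NDUFB4, NDUFB7, NDUFB10, NDUFB11, NDUFC1, NDUFS3, NDUFV1, NDUFV2, UQCR10, UQCRC2, ATP5MG, ATP5MK, ATP5PD and ATP5PF. All 18 sites reached within 1 kb of the start of the gene and 3 overlapped a CTCF site of the same member. Over all genes with a strand, 89.5% of those with RAD21 only with triptolide had the peak there. Summits of the 18 lay between -1047 bp (ATP5MK) and 962 bp (UQCR10) from the start. For 9 of the 18 an end of another gene lay within 1 kb of an end of the member. Of the 16, 9 had Pol II over all of the 1 kb around the start in both untreated lists, beside 21 of 46 members without RAD21 in either; over all genes these shares were 50.0 and 23.8%. At 1 h RAD21 was found at 1 member with and 1 without triptolide. After recovery 12 members had RAD21 with triptolide and 5 without, and 1 of the 16 was among them. These are 13.2 and 5.49% of the members, beside 17.3 and 4.31% of all genes. CTCF was called at 31 and 32 members with and without triptolide untreated, 14 and 15 at 1 h, and 24 and 39 after recovery, where the 20678 strongest peaks of each list gave 19 and 17. Over all genes the shares were 40.7 and 42.2% untreated, 22.3 and 25.1% at 1 h, and 35.2 and 47.5% after recovery. Each triptolide value is from 1 library, so these differences have no replicate check.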

How the data were processed

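Chromatin immunoprecipitation libraries of Pol II, CTCF and RAD21 from T47D cells were deposited as peak lists on hg38, with 12 inputs that carry no list. Per the submitters' processing notes, tools included MACS2, cutadapt and Bowtie2 (2.2.6), and for the earlier submission also DiffBind version 2.4.6, DESeq2 and HOMER; how each was set is not given in the sources used here. In the deposited lists each peak has a score, a fold enrichment (a ratio) and its p and q as -log10, all by the authors, used here only to rank or filter peaks within a list.

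Genes were matched by symbol to the RefSeq table of protein-coding genes, whose coordinates are those of GRCh38, the assembly of the lists. Pol II coverage is the percent of bases of a span, window or flank inside regions of a list. Flanks of 10 kb left out bases of other genes and needed 1 kb of usable bases. Differences were fitted with limma 3.58.1 (R 4.3.3, trended empirical Bayes) over genes covered in at least 1 list, 2 lists against 2, with Benjamini-Hochberg adjustment and a threshold of 0.05. The fit was also run on simulated data drawn with the spread of the untreated lists alone, so that run cannot vouch for calls that rest on the 1 h lists. CTCF and RAD21 peaks counted for a gene when they reached within 1 kb of either end. A gene was kept or lost when all or no lists at 1 h had a peak, given a peak in all 3 untreated lists. Tables were made with Python 3.11.15. No 2 lists were identical (0 pairs).

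The named genes are the 10 largest falls and rises among members without overlap, every member called by limma, the 5 largest flank rises, members with CTCF or RAD21 in all 3 untreated lists, and isoform pairs; others were named after their values were seen. For 1 member no value of its own is reported here, and its row is not drawn, though it stays in all counts. Members and lists were chosen with earlier results of these data known. The strand of a gene came from the promoter table. Titles and the series text give slightly different salt concentrations, and that of the titles was used.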

Additional observations from a re-analysis of the deposited data

How the results depend on the processing

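Of the alternative values computed, 55 kept their direction and stayed within the limits set for a count or a median, 14 were higher counts, 13 were lower counts, 4 medians moved and 0 reversed. The 17 members called lower by limma became 8 with quantile normalization and 10 with regions of -log10 q of at least 1.3, and 0 to 17 with 1 list left out. The 1 member called higher became 0 with those regions, and 0 to 3 with 1 list left out. With the replicate number as a block, 0 members were called lower and 0 higher, and no gene of 18148 was called. Same-numbered Pol II libraries did not deviate together (r = 0.0429 across genes, which are not independent replicates). This value cannot show whether same-numbered libraries were prepared together. The median span difference was -17.4 points with quantile normalization, -20.85 points with those regions and -40.3 to -26.5 points with 1 list left out, and the median flank difference was -32.1 points over 5 kb. Among counts without overlap, 45 became 30 to 54 over all alternatives, leave-outs included. The share of all genes, 23.5% as reported, ran from 13.6 to 35.2% over the same alternatives.

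The 11 of 18 members that kept CTCF became 21 of 34 within 5 kb (all genes 71.7%), 2 of 3 with equal peak numbers (77.4%) and 11 to 16, of 18 to 27, with 1 list left out (45.1 to 86.9%). The 0 that lost it became 1 within 5 kb (4.19%), 2 of 21 in the earlier submission alone (8.87%) and 0 to 3 with 1 list left out. For RAD21 the 0 of 7 kept became 2 of 12 within 5 kb (28.2%) and 0 to 1 with 1 list left out. The 2 of 7 lost became 4 of 12 within 5 kb (33.6%), 1 of 6 by summit (39.7%), 1 of 6 with -log10 q of at least 5 (40.2%), 0 of 0 with equal peak numbers, 4 of 11 in the earlier submission alone (49.7%) and 2 to 6, of 7 to 11, with 1 list left out. The cause of the changes in Pol II, CTCF and RAD21 counts was not tested. Depth is unknown in peak lists.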
